A study of Mus musculus with 31 samples.

Results

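The T cell genes described here are 10 genes that mark T lymphocytes or act at their surface: *Cd3d*, *Cd3e*, *Cd3g*, *Cd2*, *Cd4*, *Cd8a*, *Cd28*, *Ctla4*, *Foxp3* and *Lck*. They were found by symbol in the annotation of the Affymetrix array, where 9 of the 10 had a probe set, 15 probe sets in all, out of 18193 genes and 45037 probe sets. No probe set stands under *Lck* in that annotation, so this gene was not analysed here. The genes were chosen by their signals in the 4 groups of mammary tissue, already known from earlier results, and the tissue values of the 9 measured genes are therefore given as a description, with no test.

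The tissue groups, by stage, were control mammary tissue (4 samples), small hyperplasias (5), large hyperplasias (5) and tumors (11). The lesions came from K5ΔNβcat mice, in which the keratin 5 promoter drives an N-terminally truncated, stabilized β-catenin in the basal cell layer of the mammary epithelium. The labels give the strain as C57BL6 for all tissue, while the study's methods give a mixed 129SV/C57BL6 background, and no age stands in the labels. A further 6 arrays held sorted mammary basal cells of K5creMycL/L mice, in which the same promoter drives the Cre recombinase that removes *Myc* (3 samples, titled K5creL/L but given the genotype K5creMycL/L), and of control mice (3 samples). These were pools of several mice, and the sort included antibodies to CD45 and CD31, markers of leukocytes and endothelium. The labels do not say whether the tissue samples came from separate animals, so the errors measure only the spread between these samples.

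T cells recognise peptides through a receptor that pairs variable chains with the invariant CD3 chains, which carry the signal into the cell. CD4 and CD8 are the coreceptors of helper and cytotoxic T cells, CD28 supplies the costimulatory signal, CTLA-4 competes with it for the same ligands, and FOXP3 is the transcription factor of regulatory T cells. In the normal mammary gland T cells are a minor population that lies in and around the epithelium and in the fat pad, and the gland also holds a lymph node.

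The 3 CD3 genes lie together on chromosome 9, and their promoters are shown because *Cd3d* and *Cd3g*, which start 1355 bases apart on opposite strands, had the most similar signals of all the members. *Cd3e* starts 27825 bases from *Cd3d*. The sequences are the 250 bases before each start, from RefSeq (GRCm38.p6), where 7 of the 10 genes matched a promoter. *Cd3d* is chr9:44981536-44981785 on the plus strand, *Cd3g* chr9:44980432-44980681 on the minus strand and *Cd3e* chr9:45009612-45009861 on the minus strand. Capitals mark matches, on either strand, to CAGGTG, an E-box of the kind bound by E proteins, and to AGGAAG, the core of many ETS sites.
Cd3d: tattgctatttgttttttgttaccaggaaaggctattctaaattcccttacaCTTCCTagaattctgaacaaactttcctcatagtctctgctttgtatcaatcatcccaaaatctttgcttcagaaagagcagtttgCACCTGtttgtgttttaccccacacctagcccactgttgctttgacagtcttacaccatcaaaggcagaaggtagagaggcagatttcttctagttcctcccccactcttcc
Cd3g: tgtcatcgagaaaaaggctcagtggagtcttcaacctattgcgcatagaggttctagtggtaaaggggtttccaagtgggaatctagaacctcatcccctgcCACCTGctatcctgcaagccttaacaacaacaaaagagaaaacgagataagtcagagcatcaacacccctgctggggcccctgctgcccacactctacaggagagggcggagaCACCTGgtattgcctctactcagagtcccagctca
Cd3e: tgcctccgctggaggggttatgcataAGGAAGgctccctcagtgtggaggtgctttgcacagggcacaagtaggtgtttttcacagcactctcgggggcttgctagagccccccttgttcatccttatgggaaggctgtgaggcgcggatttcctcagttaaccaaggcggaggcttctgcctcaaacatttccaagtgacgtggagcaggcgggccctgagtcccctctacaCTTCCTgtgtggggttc

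*Cd3d* held 1 match to CAGGTG and 1 to AGGAAG, *Cd3g* held 2 to CAGGTG, and *Cd3e* held 2 to AGGAAG. None of the matches overlapped. The motifs TGTGGT (the RUNX core) and TATAAA had 0 matches in the 3 windows. Among 32851 promoters of the same length, CAGGTG was found in 17.2%, AGGAAG in 29.5%, TGTGGT in 14% and TATAAA in 12.4%. The GC content was 41.2% for *Cd3d*, 51.6% for *Cd3g* and 57.2% for *Cd3e*.

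The T cell genes were brightest in large hyperplasias. In 7 of the 9 measured genes every large hyperplasia lay above every control sample, as in 20.8% of all probe sets tested. In *Cd3e*, *Cd28* and *Cd2* every tumor lay below every large hyperplasia, as in 14.3% of the probe sets tested. Values are linear MAS5 signals, the intensity summary of the Affymetrix software, on arrays scaled to a trimmed mean of 100, and the study's methods take a signal under 30 as background. *Foxp3*, among the 7 genes, exceeded 30 on only 1 large hyperplasia and on no control sample. Where a gene had several probe sets, the brightest, by its mean of log2(signal + 16) in tissue, stands for it. In tissue, fewer T cells and less RNA per T cell cannot be told apart.

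**Figure D1:**
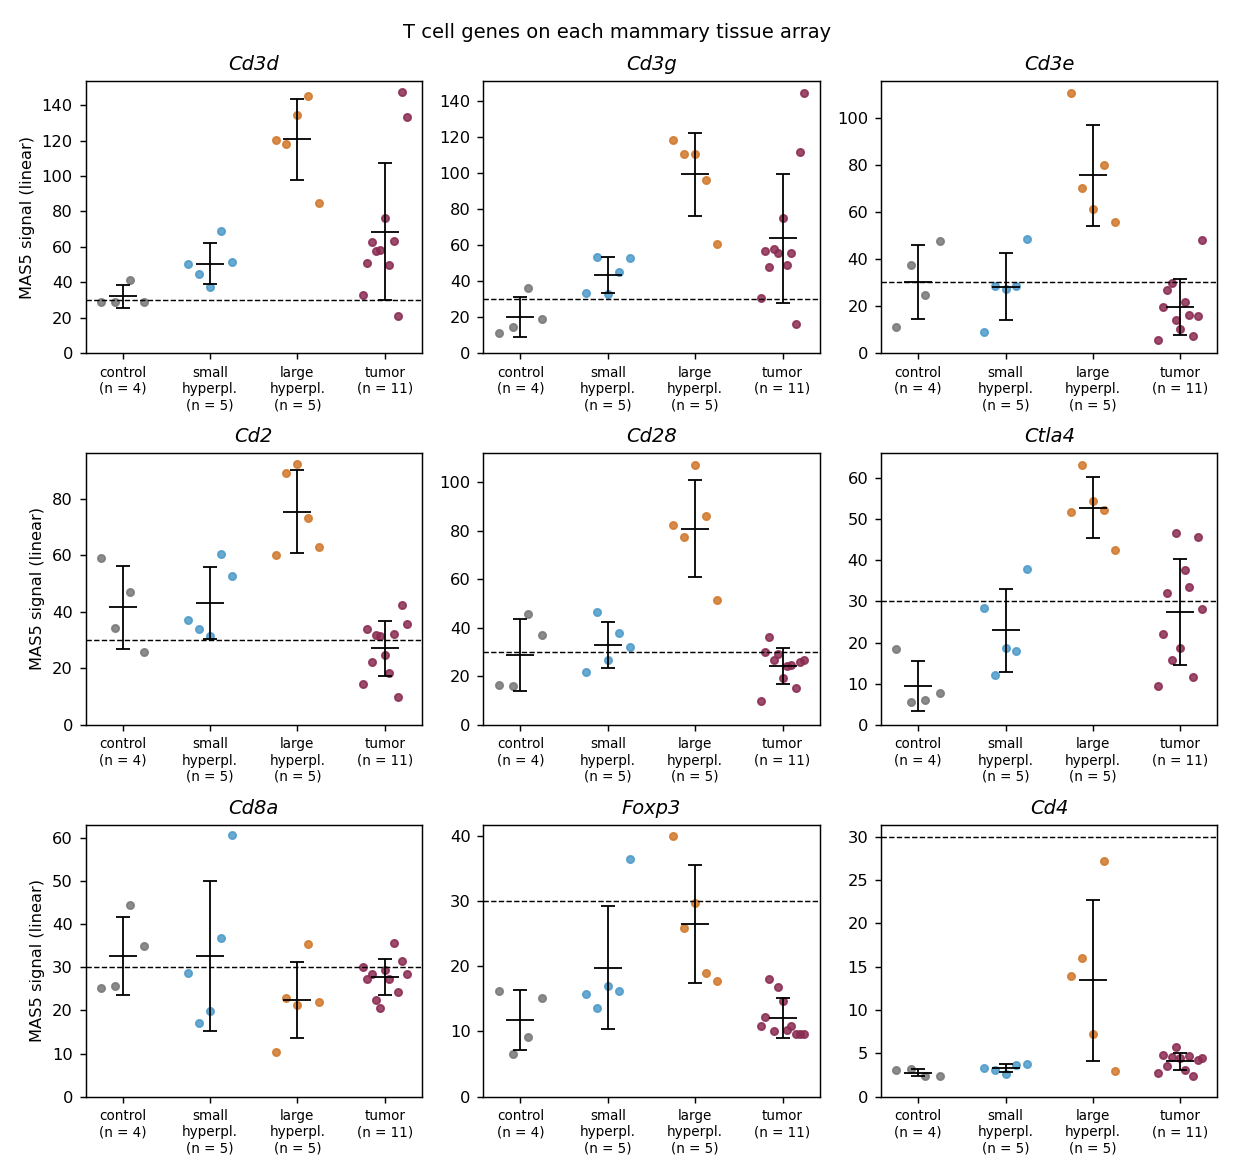
MAS5 signals (linear) of the 9 measured T cell genes on every array of control tissue, small hyperplasias, large hyperplasias and tumors, by stage. Points are arrays, bars are the group mean and SD, and the dashed line is the background signal of 30. Large hyperplasias lay above control tissue without overlap in 7 of the 9 genes, *Cd8a* and *Cd4* being the exceptions, and in 20.8% of all probe sets tested.

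*Cd3d*, which encodes the CD3 delta chain, had signals of 120.3, 118, 134, 145 and 84.9 in large hyperplasias, against 28.6, 29.1, 41.4 and 28.9 in control tissue. All large hyperplasias were thus above all control samples, 3 of which lay just under the background signal. Small hyperplasias had 50.1, 44.8, 37.3, 69.2 and 51.5, and only the lowest of them was under the highest control sample. Tumors spread from 20.7 over a median of 58.0 to 147, and overlapped every other group.

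*Cd3g*, the gamma chain, followed the same order. Its signals were 118, 110.3, 110.4, 96.1 and 60.6 in large hyperplasias, against 11.2, 14.2, 36.3 and 18.9 in control tissue, where only 1 sample exceeded the background signal. Small hyperplasias had 33.4, 53.0, 32.7, 44.8 and 52.7. Tumors ran from 16.1 over a median of 55.6 to 144, and 10 of the 11 were at or above background.

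*Cd3e*, the epsilon chain, differed from both in the tumors. It had 110.4, 70.2, 61.2, 80.1 and 55.7 in large hyperplasias, against 11.2, 37.3, 24.7 and 47.8 in control tissue. In the tumors it ran from 5.47 over a median of 16.2 to 48.0, and only 1 tumor exceeded the background signal, so that all tumors lay below all large hyperplasias and most lay within the range of control tissue. Small hyperplasias had 8.78, 28.5, 27.2, 28.4 and 48.6.

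*Cd28*, the costimulatory receptor, had 82.3, 77.2, 107, 85.8 and 51.4 in large hyperplasias, against 16.5, 15.8, 45.5 and 37.1 in control tissue. *Cd2*, an adhesion molecule of T and natural killer cells, had 60.0, 89.1, 92.1, 73.2 and 62.8 in large hyperplasias, against 59.1, 34.3, 47.1 and 25.7 in control tissue, so that the highest control sample lay just under the lowest large hyperplasia. In tumors *Cd28* ran from 9.65 over 25.8 to 36.0 and *Cd2* from 9.95 over 31.6 to 42.3, and for both genes no tumor reached the lowest large hyperplasia. Small hyperplasias spanned 22.0 to 46.3 for *Cd28* and 31.4 to 60.4 for *Cd2*, and overlapped control tissue in both.

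*Ctla4*, the inhibitory counterpart of *Cd28*, had 51.8, 63.2, 54.5, 52.1 and 42.6 in large hyperplasias, against 18.6, 5.62, 6.16 and 7.87 in control tissue. As all control samples were under 30, its fold is a bound: large hyperplasias were at least 1.75-fold higher. Tumors ran from 9.38 over 28.1 to 46.7, and 5 of them exceeded background, while small hyperplasias ran from 12.1 to 37.8.

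*Foxp3* and *Cd4* were dim. *Foxp3* had 40.1, 25.8, 29.7, 19.0 and 17.7 in large hyperplasias, against 16.2, 6.54, 9.14 and 15.2 in control tissue, and 9.56 to 18.0 in tumors, with 1 large and 1 small hyperplasia above background. Both *Cd4* probe sets were below 30 on all tissue arrays. The brighter one had 13.9, 15.97, 7.19, 27.2 and 2.94 in large hyperplasias, against 2.39 to 3.24 in control tissue. With all arrays below background, *Cd4* gives no fold.

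*Cd8a* depended on the probe set. Its brightest set in tissue did not separate the groups (10.4 to 35.4 in large hyperplasias and 25.3 to 44.5 in control tissue) and correlated with the other 4 at -0.09 to 0.10 over the 25 tissue arrays. Among the others, 3 sets correlated with each other at 0.68 to 0.84. The arrays of a group share their condition, so these correlations are a description. Of these 3, the set with the highest mean linear signal in tissue had 32.0, 53.7, 39.4, 48.2 and 22.4 in large hyperplasias, against 7.79, 9.59, 21.6 and 29.5 in control tissue. In small hyperplasias it ran from 5.68 to 20.02, below every large hyperplasia. In tumors it ran from 9.41 over 32.5 to 100, and the highest control sample exceeded the lowest large hyperplasia. Another of the 3 had 27.8 to 58.2 in large hyperplasias, 13.8 to 51.0 in control tissue and 9.48 to 82.8 in tumors. The last of the 3 had 32.6 to 45.1 in large hyperplasias, 2.38 to 27.5 in control tissue and 8.25 to 75.9 in tumors.

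On the scale of log2(signal + 16), which understates the change of dim genes, the median difference of the 9 genes between large hyperplasias and control tissue was 1.03, beside 0.06 over all 24001 probe sets tested there. The largest were those of *Cd3g* (1.69), *Cd3d* (1.5) and *Ctla4* (1.45), and the only one below 0 was that of *Cd8a* (-0.35 with its brightest probe set). The 7 genes without overlap all ran upward, where 20.8% of all probe sets tested did so and 16.6% ran downward without overlap, and 1 of the 7, *Foxp3*, was too dim to enter the test across probe sets, which took in 7 of the 9 genes. The separation was one of the values with which the genes were chosen, so nothing is read from the count.

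**Figure D2:**
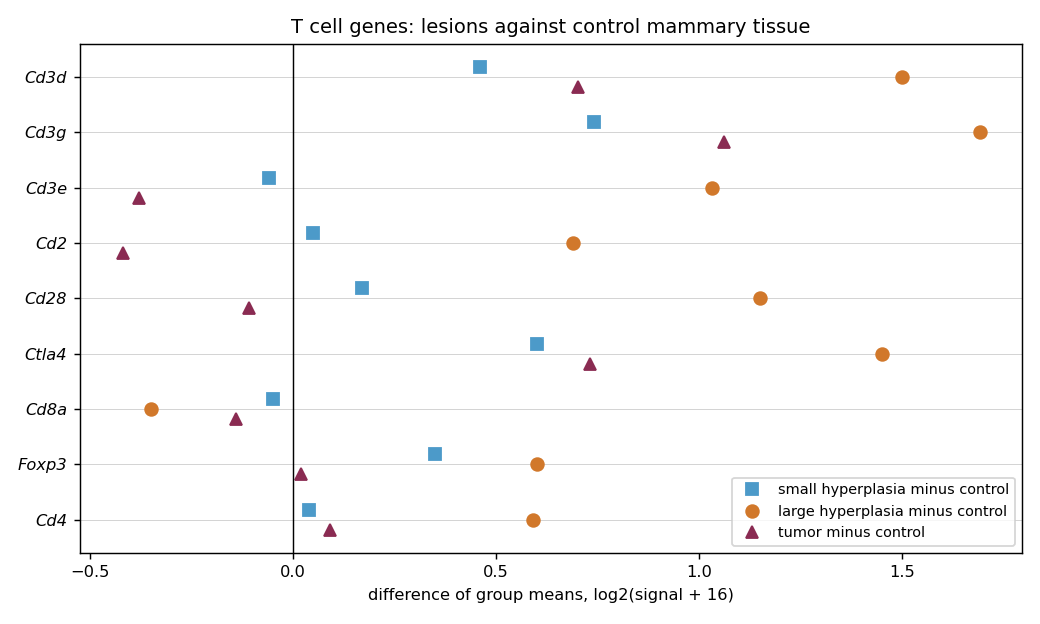
Differences of group means on the scale of log2(signal + 16) for the 9 measured T cell genes, each lesion group minus control tissue. Large hyperplasias (circles) reached 1.69 for *Cd3g*, while tumors (triangles) lay on both sides of 0, with *Cd3g* at 1.06 and *Cd2* at -0.42.

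Large hyperplasias stood apart from small hyperplasias by nearly as much. The median difference of the 9 genes was 0.85, beside 0.03 over all probe sets tested, and 5 genes (*Cd3d*, *Cd3e*, *Cd3g*, *Cd28* and *Ctla4*) did not overlap, all of them higher in large hyperplasias, where 5.2% of the probe sets tested were higher and 4.2% lower without overlap. This comparison was added after the values had been seen. The value of 27.8 for *Cd28* with its second probe set in large hyperplasias, against 14.9 in small hyperplasias, ran the same way at a dimmer level.

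In small hyperplasias the median difference from control tissue was 0.17, beside 0 over all probe sets tested, and none of the 9 genes was free of overlap, where 12% of the probe sets tested were higher and 10.1% lower without overlap. *Cd3g* (0.74), *Ctla4* (0.60) and *Cd3d* (0.46) had the highest differences. *Cd3g* averaged 43.3 ± 9.95 in small hyperplasias (SD, n = 5) and 20.2 ± 11.2 in control tissue (SD, n = 4).

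In tumors the median difference from control tissue was 0.02, beside -0.03 over all probe sets tested, and again none of the 9 genes was free of overlap, against 19.7% higher and 22.1% lower without overlap among the probe sets tested. The 9 genes did not move as one. *Cd3g* (1.06), *Ctla4* (0.73) and *Cd3d* (0.70) lay above control tissue, and *Cd2* (-0.42) and *Cd3e* (-0.38) below it. Between tumors and large hyperplasias the median difference, tumors minus large hyperplasias, was -0.72, beside -0.09 over all probe sets tested, with *Cd3e* at -1.40, *Cd28* at -1.26 and *Cd2* at -1.11. These 3 genes were lower in tumors without overlap, as were 14.3% of the probe sets tested, while 8.93% were higher without overlap.

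The tumors differed among themselves. The summed signal of the 9 genes was 434 and 458 in tumors 10 and 11, against 117 in tumor 9 and 146 in tumor 1, and it lay between 241 and 278 in the other 7 tumors. Large hyperplasias spanned 401 to 618, so tumors 10 and 11 reached the lowest large hyperplasia and tumors 1 and 9 lay below all control samples (172 to 257). *Cd3d* was 147 in tumor 10 and 133 in tumor 11, against 20.7 in tumor 9 and 32.7 in tumor 1. Each of tumors 1 and 9 was among the lowest 2 of the 11 for 7 of the 9 genes, and tumor 10 was among the highest 2 for 5.

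*Cd3d* and *Cd3g* followed each other across the 11 tumors (Pearson's r 0.97, Spearman's rho 0.79), and r was 0.96 without the 2 tumors farthest from the median of *Cd3d*. Across all 25 tissue arrays r was 0.94 and rho 0.91. *Cd3e* followed *Cd3d* less closely in the tumors (r 0.58, rho 0.34), as did *Cd28* (r 0.50, rho 0.35), and *Cd2* lay between (r 0.83, rho 0.75). All these points share their array, its scaling and its stage, and the correlations are given with no test.

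The 2 chains of CD8 were also highest in tumors 10 and 11. *Cd8a*, by the same one of its 3 correlated probe sets, was 87.9 and 100 there, above the highest large hyperplasia (53.7), and 9.41 in tumor 9. With another of the 3, tumor 10 (53.0) lay below the highest large hyperplasia (58.2) and tumor 11 (82.8) above it. With the last, both tumors (65.9 and 75.9) lay above the highest large hyperplasia (45.1). *Cd8b1*, the beta chain, was 42.6 in tumor 10, 72.9 in tumor 11 and 6.83 in tumor 9, and 42.3 to 55.3 in large hyperplasias. *Gzmb*, which encodes the cytotoxic protease granzyme B, was 289 in tumor 10, 293 in tumor 11 and 234 in tumor 6, but 22.3 to 90.0 in the other 8 tumors and 18.8 to 32.3 in large hyperplasias. *Cd79a*, a chain of the B cell receptor complex, was not raised with them, with 9.61 and 3.92 in tumors 10 and 11.

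**Figure D3:**
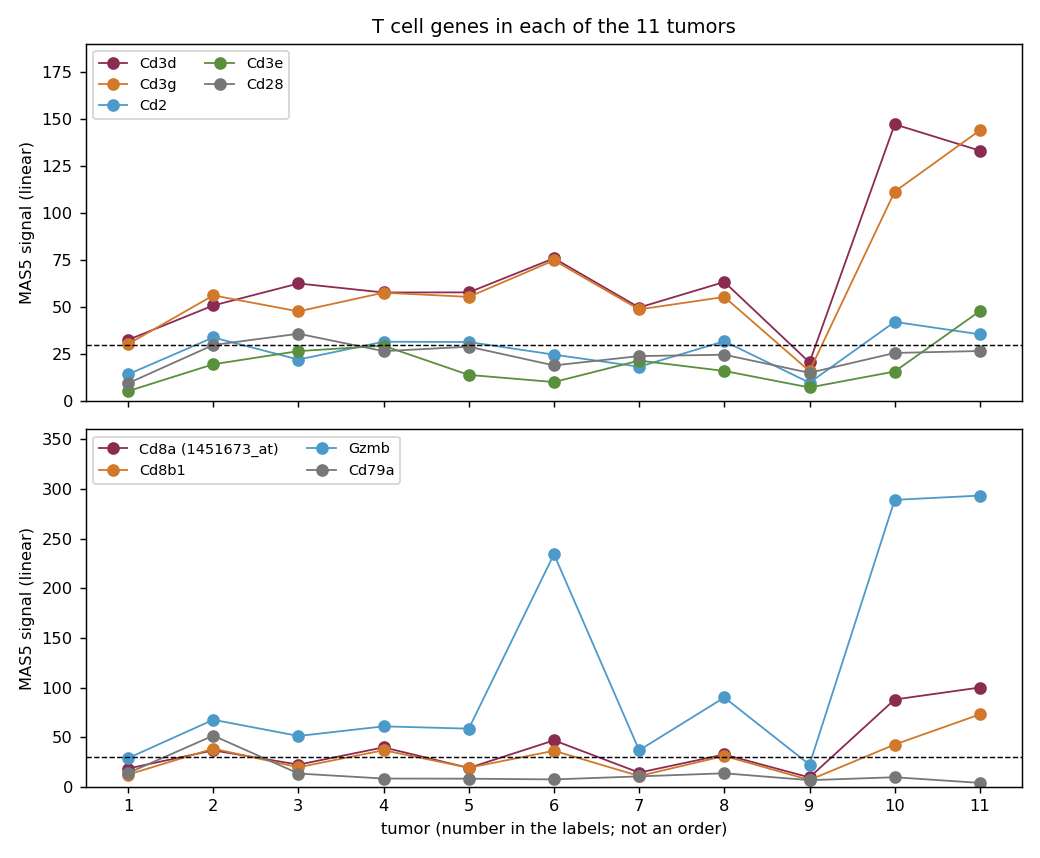
MAS5 signals (linear) in each of the 11 tumors, for *Cd3d*, *Cd3g*, *Cd2*, *Cd3e* and *Cd28* (top) and for *Cd8a*, *Cd8b1*, *Gzmb* and the B cell gene *Cd79a* (bottom). Lines join the values of a gene for reading only, and the dashed line is the background signal of 30. Tumors 10 and 11 were high for *Cd3d*, *Cd3g*, *Cd8a* and *Gzmb*, and tumor 9 was the lowest for *Cd3d* and *Cd3g*.

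Other T cell genes, 63 in 4 lists without the 10 above, were tested with limma across all probe sets. Of these, 56 had a probe set. The lists too were chosen with earlier results of these data known, so their counts are no independent evidence. Genes were tested where the higher group median was at least 30. Some, such as *Icos* and *Ccr7*, were below 30 on all control samples and entered only through the lesions. The defining chains of the T cell receptor could not help here, since *Trac*, which encodes the constant region of the alpha chain, was below 30 on all tissue arrays and no probe set stands under *Trbc1* or *Trbc2*. In large hyperplasias against control tissue 30 of the 35 tested genes were called higher and 2 lower, at an adjusted p under 0.05, where 25.6% of all probe sets were called higher and 20.1% lower (45.7% in either direction). Their median difference was 1.21, beside 0.06 over all probe sets tested.

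Receptors that guide T cells and keep them alive were among the highest in large hyperplasias. *Il7r*, the receptor of the survival cytokine interleukin 7, had 566, 431, 532, 427 and 338 in large hyperplasias, against 94.6, 100.2, 62.3 and 81.2 in control tissue (log2 difference 2.23 ± 0.39 SE, limma adjusted p 4.5e-05). *Ccr7*, which directs T cells to lymphoid tissue, had 90.0, 78.7, 96.8, 106 and 52.2 in large hyperplasias, against 7.82, 8.14, 1.73 and 15.8 in control tissue, at least 2.75-fold higher (limma adjusted p 8.9e-08). Neither gene overlapped between the groups. *Cxcr6* and *Ccr6* were called higher as well (1.51 and 1.85), and *Itgae*, an integrin of tissue-resident T cells, was at least 2.79-fold higher. *S1pr1* and *Klf2*, which in T cells serve exit from lymphoid organs, fell in large hyperplasias (-1.19 and -0.88). Both genes are also active in endothelium. All 6 genes of the endothelial list fell in the same comparison, where 20.1% of all probe sets were called lower. How much of the fall of *S1pr1* and *Klf2* follows the endothelium was not tested.

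In the surface and costimulation list 20 genes had a probe set, and 10 were bright enough to be tested. All 10 were called higher in large hyperplasias, with a median difference of 1.20, where 25.6% of all probe sets were called higher. Some of them, such as *Icos*, passed the filter only through large hyperplasias. *Icos*, a relative of *Cd28*, had 110.3, 68.2, 60.3, 72.6 and 36.2 in large hyperplasias, against 0.981, 6.597, 18.4 and 11.3 in control tissue, at least 2.18-fold higher (limma adjusted p 8.5e-06). *Tnfrsf18*, which encodes the costimulatory receptor GITR, had 127, 150, 127, 142 and 122 in large hyperplasias, against 39.0, 31.6, 29.3 and 29.6 in control tissue (1.63 ± 0.24 SE, limma adjusted p 5.8e-06). *Btla*, an inhibitory receptor of T and B cells, rose by 1.21. For both named costimulatory receptors the groups did not overlap.

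In the list of T cell receptor signaling 7 of 9 tested genes were called higher, where 25.6% of all probe sets were. *Lat*, the adaptor that links the receptor to downstream enzymes, had 135, 104, 112, 103 and 71.4 in large hyperplasias, against 43.8, 36.3, 33.9 and 4.97 in control tissue (1.49 ± 0.27 SE, limma adjusted p 6.9e-05). *Fyb1*, an adaptor of T and myeloid cells, rose by 1.43, and *Cd8b1* was at least 1.62-fold higher. *Zap70*, a kinase of the receptor, was not called (-0.15, limma adjusted p 0.81).

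Among transcription factors 6 of 7 tested genes were called higher, beside 25.6% of all probe sets. *Ikzf3*, which encodes the lymphocyte factor Aiolos, had 85.9, 82.8, 74.6, 75.9 and 44.0 in large hyperplasias, against 8.52, 17.0, 36.9 and 5.91 in control tissue (1.49 ± 0.24 SE, limma adjusted p 2.1e-05). *Bcl11b* had the largest difference, 3.05, but sorted control basal cells, which lacked the members' signals, also had 149.5 to 290.3. They were bright for *Tnfrsf18* too (224 to 363) and for *Cxcr4* (1405 to 1724), a chemokine receptor that also rose in large hyperplasias (2.07). The signals of sorted cells were amplified with another kit and are no measure of the level in tissue.

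Secreted T cell products stayed dim. All 9 measured genes of the cytokine list, among them *Ifng*, *Il2*, *Il4* and *Il17a*, were below 30 on all arrays of control tissue and of both hyperplasias, and 6 of the 9 on all tumors, so none was tested in any comparison. Of the cytotoxic list, which T cells share with natural killer cells, 5 of 8 tested genes were called higher in large hyperplasias, beside 25.6% of all probe sets. *Ccl5*, a chemokine of activated T cells, had 492, 363, 507, 499 and 270.4 in large hyperplasias, against 151, 156, 259.9 and 122 in control tissue (1.24 ± 0.43 SE, limma adjusted p 0.022), and lost its call without control sample 4 (limma adjusted p 0.063 for *Ccl5*). *Gzmk*, a granzyme, rose by 1.00 and lost its call without control sample 2 (limma adjusted p 0.094). *Prf1*, which encodes perforin, was below 30 on all control samples and hyperplasias.

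**Figure D4:**
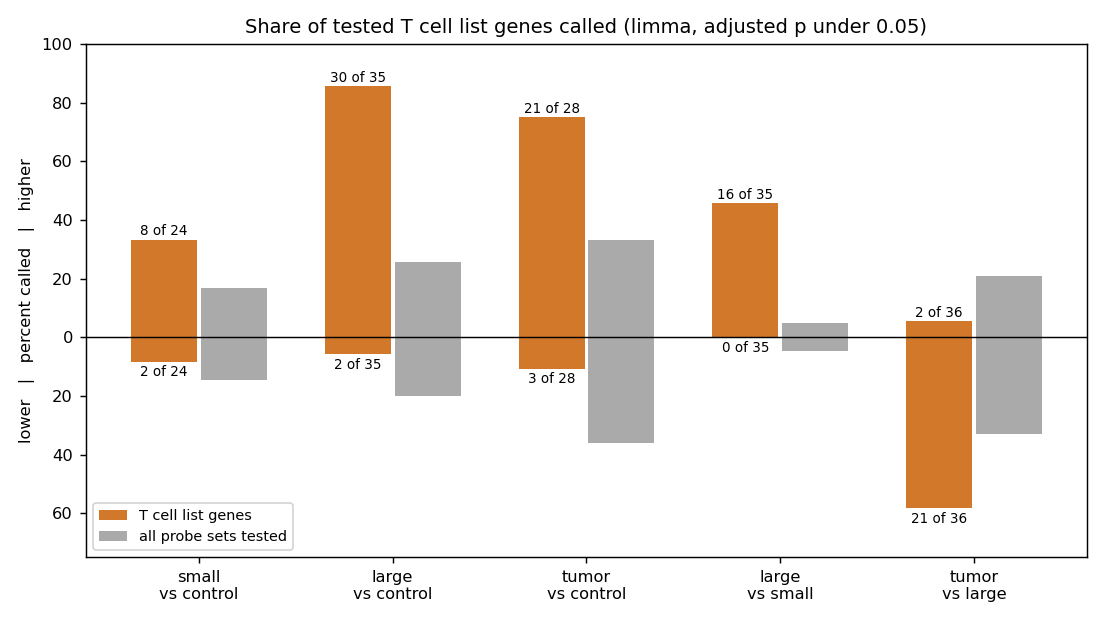
Percent of tested T cell list genes (orange) and of all probe sets tested (grey) that were called higher (upward) or lower (downward) in 5 comparisons of mammary tissue, by limma at an adjusted p under 0.05. In large hyperplasias against control tissue 30 of 35 T cell list genes were called higher, beside 25.6% of all probe sets. In tumors against large hyperplasias 21 of 36 were called lower, beside 32.9%. Some T cell list genes passed the filter only through large hyperplasias. Under quantile normalization, not drawn, 12 of 34 were lower, with no share of all probe sets counted.

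Small hyperplasias showed fewer calls. In small hyperplasias against control tissue 8 of 24 tested T cell genes were called higher and 2 lower, where 16.8% of all probe sets were called higher and 14.4% lower (31.2% in either direction). *Bcl11b* (1.89) and *Cxcr4* (1.37), bright in sorted control basal cells as well, were among those called higher. *Ccr7* had 26.9, 23.6, 41.0, 67.7 and 70.5 in small hyperplasias, against at most 15.8 in control tissue, at least 1.39-fold higher (limma adjusted p 0.00012). *Thy1*, a surface protein of T cells and of fibroblasts, had 447 to 1098 in small hyperplasias, against 223 to 338 in control tissue (1.24, limma adjusted p 0.00031). *Tnfrsf9*, an activation-induced costimulatory receptor, was at least 1.51-fold higher (limma adjusted p 0.0032), but its call was lost with signals below 30 set to 30 (adjusted p 0.21). *Il7r* was not called (0.57, limma adjusted p 0.27), although its groups did not overlap.

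Between the hyperplasias 16 of 35 tested T cell genes were called higher in large than in small ones and 0 lower by limma, where 5.01% of all probe sets were called higher and 4.62% lower (9.63% in either direction). Some of the 35, such as *Cd8b1*, passed the filter only through large hyperplasias, where they are high. In small hyperplasias against control tissue only 24 were tested. *Il7r* was 338 to 566 in large hyperplasias, against 100.5 to 205 in small hyperplasias (1.66 ± 0.36 SE, limma adjusted p 0.0063). *Cd8b1* was 42.3 to 55.3 in large hyperplasias, against 0.828 to 18.1 in small hyperplasias, at least 1.62-fold higher (limma adjusted p 0.0031). *Cxcr6*, a receptor of resident T cells, was 85.7 to 138 in large hyperplasias, against 29.2 to 49.0 in small hyperplasias (1.26, limma adjusted p 0.0046). The number of genes called higher was 9 without large hyperplasia 1 and 21 without small hyperplasia 5.

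In tumors against control tissue 21 of 28 tested T cell genes were called higher and 3 lower, where 33.2% of all probe sets were called higher and 35.9% lower (69.1% in either direction). Among those called higher were *Bcl11b* (2.63), *Cxcr4* (1.88) and *Tnfrsf18* (1.16). Sorted control basal cells were also bright for these, at 149.5 to 290.3, 1405 to 1724 and 224 to 363. The 9 members had a median difference of 0.02 in this comparison. *Tnfrsf9* led the surface genes, with 69.6 to 261 (median 151) in tumors, against 3.11 to 21.8 in control tissue, at least 4.27-fold higher (limma adjusted p 1.3e-08). *Havcr2*, an inhibitory receptor that macrophages also carry, was at least 1.52-fold higher (limma adjusted p 1e-06). *Il7r* ran from 54.0 over 257 to 426 in tumors, against 62.3 to 100.2 in control tissue (1.22 ± 0.34 SE, limma adjusted p 0.0024), with tumors 1 and 9 as the only ones that did not exceed all control samples. *Icos* was at least 1.23-fold higher (limma adjusted p 0.00012), but its call was lost with signals below 30 set to 30 (adjusted p 0.13) and with its second brightest probe set, where the log2 difference was 0.07 (adjusted p 0.75). A further probe set of *Icos* ran upward at a dim level, with means of 22.1 in tumors and 1.49 in control tissue. *Lat* rose by 0.66 (limma adjusted p 0.014) and lost its call without control sample 4 (0.32, adjusted p 0.19) and with the replicate number as a block (0.63, adjusted p 0.057). The 3 genes called lower were *Klf2* (-2.06), *S1pr1* (-1.64) and *Cxcr3* (-0.75), a chemokine receptor of activated T cells, and none of the 3 overlapped.

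In tumors against large hyperplasias 21 of 36 tested T cell genes were called lower and 2 higher, where 32.9% of all probe sets were called lower and 21% higher (53.9% in either direction). Some of the 36, such as *Ikzf3* with a tumor median of 20.6, passed the filter only through large hyperplasias, where they are high. Under quantile normalization 12 of 34 were called lower. The share of all probe sets called lower under that normalization was not counted, so 32.9% is no background for it. The array medians of tumors lay below those of large hyperplasias. Without quantile normalization the median difference was -0.51, beside -0.09 over all probe sets tested. *Cxcr3* ran from 20.9 over 36.0 to 42.2 in tumors, against 127, 112, 113, 92.4 and 79.4 in large hyperplasias (-1.30 ± 0.13 SE, limma adjusted p 2.2e-08). *Ccr7* ran from 14.2 over 30.5 to 38.0 in tumors, against 52.2 to 106 in large hyperplasias (-1.18, limma adjusted p 9.9e-06). *Ikzf3* ran from 5.35 over 20.6 to 36.2 in tumors, against 44.0 to 85.9 in large hyperplasias (-1.29, limma adjusted p 7.6e-06). No tumor reached the lowest large hyperplasia for these 3 genes, not even tumors 10 and 11, where *Cd3d* was high. The 2 genes called higher were *Tnfrsf9* (1.03) and *Havcr2* (at least 1.52-fold, limma adjusted p 0.0087).

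Markers of other cells moved with the stages as well. Of 9 tested B cell genes all 9 were called higher in large hyperplasias when set against control tissue, 8 when set against small hyperplasias, and 8 were lower in tumors than in large hyperplasias. The shares of all probe sets were 25.6%, 5.01% and 32.9%. Only 4 B cell genes were tested in tumors against control tissue and 6 in small hyperplasias against control tissue. Some therefore passed the filter only through large hyperplasias. *Ms4a1*, which encodes CD20, had 206, 225, 99.7, 121 and 36.4 in large hyperplasias, against 17.0, 67.1, 13.3, 62.6 and 37.5 in small hyperplasias. *Cxcl13*, a chemokine that draws B cells and follicular helper T cells, had 412, 487, 464, 331 and 168 in large hyperplasias, against 44.7, 71.0, 64.9 and 61.9 in control tissue (2.27 ± 0.42 SE, limma adjusted p 8.6e-05). The lymph node list also held vessel genes. *Madcam1* and *Chst4* were below 30 on all tissue arrays. *Glycam1*, a mucin of lymph node vessels that the mammary epithelium also makes, ran from 0.894 to 6880 in tumors, against 0.943 to 1.87 in control tissue, at least 4.89-fold higher (limma adjusted p 0.0038), and was 75.5 to 187 in large hyperplasias, without overlap with control tissue (limma adjusted p 0.057). The summed signal of the 5 measured genes of that list was 3770, 1961 and 7097 in tumors 1 to 3 and 111 to 456 in the other tumors, 406 to 759 in large hyperplasias and 88.4 to 157 in control tissue. The part of lymph node tissue in the T cell signals was not tested.

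The summed signal of 11 genes that all leukocytes share was 6333 to 9522 in large hyperplasias and 3210 to 8629 in tumors, against 1956 to 4418 in control tissue. Tumors 9 and 1 had the lowest of these sums among the tumors (3210 and 4005), as they had for the T cell genes, while tumors 10 and 11, with 8133 and 7824, stood among the high ones. The sum of 8 neutrophil genes followed another order. It was 8890 to 18010 in tumors, 2959 to 10080 in large hyperplasias and 1341 to 2127 in control tissue. *S100a8* and *S100a9* made up most of it in tumors, with means of 6127 and 5537 beside a median sum of 13830. Whether the signal of these 2 genes came only from neutrophils was not tested. The sum of 11 macrophage genes was 5666 to 9721 in tumors and 9643 to 12190 in large hyperplasias. Adipocyte genes had sums of 654 to 6145 in tumors and 15000 to 19710 in large hyperplasias, against 38930 to 42810 in control tissue, and the basal keratins *Krt5* and *Krt14* were called higher in tumors (3.09 and 3.69) and in large hyperplasias (2.61 and 2.95) than in control tissue. How much of the T cell differences follows the share of fat or epithelium was not tested.

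**Figure D5:**
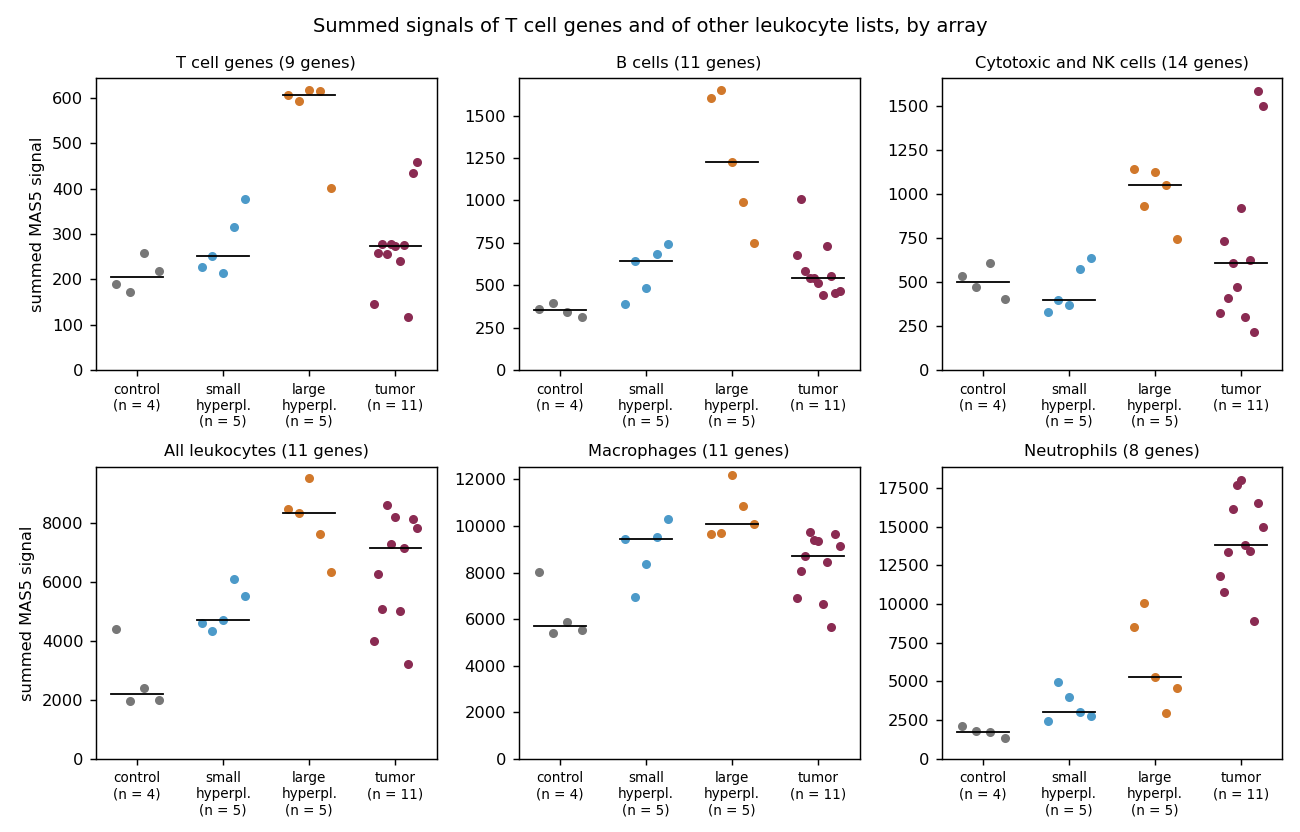
Summed MAS5 signals, by array, of the 9 measured T cell genes and of lists for B cells, cytotoxic and natural killer cells, all leukocytes, macrophages and neutrophils, in control tissue, small hyperplasias, large hyperplasias and tumors, by stage. Lines are group medians. T cell and B cell sums were highest in large hyperplasias, neutrophil sums in tumors (8890 to 18010).

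Array medians were 23.9 to 29.6 in tumors, 29.8 to 32.9 in large hyperplasias, 28.3 to 29.97 in small hyperplasias and 27.1 to 30.1 in control tissue. Tumors 1 to 3 stood apart, with medians of 29.1 to 29.6, while the other 8 tumors had 23.9 to 26.7. Without these 3 tumors, left out after the data had been seen, 21 T cell genes were called higher and 3 lower than in control tissue, and 18 lower and 2 higher than in large hyperplasias. *Cd8b1*, lower in tumors than in large hyperplasias with all arrays (-0.61, limma adjusted p 0.033), was then no longer called (adjusted p 0.068). The call of *Cd8b1* was lost as well with no offset (adjusted p 0.14), with no filter (0.05), under quantile normalization (0.12) and without any 1 of tumors 1, 7 and 9 or of large hyperplasias 1 to 4 (0.052 to 0.072).

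The genes most like the members in pattern were ranked by Pearson's r with the mean of the 9 standardized members, over the 25 tissue arrays and 12167 candidate genes. *Trav9d-3*, a variable segment of the T cell receptor alpha chain, came first (r 0.93, rho 0.84). Its signals were 136 to 232 in large hyperplasias, 45.8 to 144 in tumors and 81.3 to 120.2 in control tissue. It was followed by *Rasal3* (0.91), *Ikzf3* (0.88), *Traf1* (0.88), *Nr4a3* (0.86), *Ccl5* (0.86), *Icos* with another probe set (0.85), *Epsti1* (0.85), *Rac2* (0.85) and *Gimap3* (0.85). Within the 11 tumors the order was *Cyp4v3* and *Pcgf5* (0.94 each), *Ptprj* (0.93), *Trav9d-3* with its other probe set (0.92) and *Ifnar2* (0.91). Arrays of a stage share their condition, neighbours in these ranks differ by little, and the probe sets of variable segments can take up RNA of related segments.

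Sorted basal cells showed almost none of the 9 measured T cell genes. The cells were sorted as basal epithelium, with an antibody to CD45 included, so these low signals say nothing of T cells in tissue. Of the T cell lists, *Bcl11b*, *Tnfrsf18* and *Cxcr4* were bright there, as given above. On the 6 arrays the members' probe sets were below 30 except for 1 *Cd4* probe set at 58.5 in Myc-deficient sample 1. The summed signal of the 9 genes was 114, 23.1 and 65.2 in Myc-deficient basal cells, against 55.5, 46.6 and 56.4 in control basal cells. None of the 9 passed the filter on dim probe sets, and none was free of overlap, where 5.77% of the probe sets tested were higher and 6.32% lower without overlap. Of 11 tested T cell list genes 0 were called in either direction by limma, 0 had an unadjusted p under 0.05, and 0% of all probe sets were called. The fit that gave these counts did not pair the samples.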

How the data were processed

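The deposited values are linear intensity signals, made by the authors with MAS5 and, per the labels, Affymetrix Expression Console, with versions not given in the sources used here. They cover 31 Affymetrix mouse genome arrays. Tissue and sorted-cell RNA were labelled with different kits and fitted apart. Of 45101 rows, 64 control probe sets were left out. Among the other 45037, 34945 had 1 gene symbol, 932 had several and were not named, and 9160 had none. MAS5 signals carry no depth, so the number of arrays limits the precision.

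Signals were taken as log2(signal + 16) and tested with limma 3.58.1 in R 4.3.3 (eBayes with trend), in 1 model of the 25 tissue arrays and 1 of the 6 sorted-cell arrays. Probe sets whose higher group median was at least 30 were tested, with Benjamini-Hochberg adjustment over all of them and a threshold of 0.05. Where a group lay below 30 on all arrays, a fold is a bound, the geometric mean of the brighter group over 30. The steps were tested on simulated data with known changes. The genes described and the lists were chosen with earlier results of these data known. Named are the measured members, from each list up to 4 called genes with the largest difference in tumors against control tissue and up to 2 in each other comparison, and the genes most like the members. Other genes in the text, such as *Zap70*, *Trac*, *Prf1* and *Cd79a*, were chosen after their values were seen, as was the set of values shown tumor by tumor.

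The replicate numbers of the sorted cells seemed to pair the samples, although the labels only number them and state no pairing. Same-numbered samples correlated at 0.221, 0.231 and 0.259 after removal of the group means, and each correlated best with its own number. Offset, filter, normalization, probe set choice, model and left-out arrays were varied.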

Additional observations from a re-analysis of the deposited data

Results flagged for a closer look

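Of 27 combinations of a T cell gene and a group of 4 or 5 samples, 2 held a sample far from the others, and chance flags about 1 in 20 groups. *Cd3d* was 41.4 in control tissue 3, while the other control samples had 28.55 to 29.05. *Foxp3* was 36.46 in small hyperplasia 5, while the other small hyperplasias had 13.58 to 16.95.

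Of the T cell lists, 21 genes were called lower and 2 higher in tumors against large hyperplasias by limma, where 32.9% of all probe sets were called lower and 21% higher. As both groups share the control samples, this contrast is also the difference between their differences from control tissue. Only the named genes with the largest differences, up to 2 in each list and 8 in all, are given here, as tumors minus large hyperplasias on the log2 scale. The difference was -0.82 for *Lat*, -0.61 for *Cd8b1*, -1.4 for *Btla* and -1.32 for *Cd7*, a surface protein of T and natural killer cells. The call of *Cd8b1* was lost with no offset, with no filter, under quantile normalization and without any 1 of 7 arrays (limma adjusted p 0.05 to 0.14). The difference was -1.3 for *Cxcr3*, -1.18 for *Ccr7*, -1.29 for *Ikzf3* and -1.03 for *Eomes*, a transcription factor of cytotoxic lymphocytes. *Cd7* and *Eomes* were below 30 on all tumor arrays, so they passed the filter only through large hyperplasias. The size of their differences depends on the offset.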

How the results depend on the processing

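Of 144 combinations of a named gene and a comparison, 112 kept their call under all alternatives in which they were tested. A gene that was not tested under an alternative was passed over there. A gene with 1 probe set kept it where the second brightest was asked for. No direction turned in 3142 values, and 94 fell short of the threshold. Of 729 values of the 9 T cell genes, 46 moved by more than the spread between replicates. With no offset, the median difference of the 9 genes was 1.61 in large hyperplasias against control tissue, -1.11 in tumors against large hyperplasias and 1.26 in large against small hyperplasias. With the second brightest probe set it was 0.69 in large hyperplasias against control tissue. Of the 9 genes only *Cd28*, *Cd4* and *Cd8a* have a second probe set, so the others kept theirs. Of the T cell lists, 6 genes were called lower in tumors, set against control tissue, with no filter, 13 were higher in small hyperplasias than in control tissue with only these 2 groups fitted, and under quantile normalization 12 were lower in tumors than in large hyperplasias and 1 was lower in large than in small hyperplasias. The shares of all probe sets called under these settings were not counted. The causes were not tested.

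With arrays left out in turn, the genes called higher numbered 19 to 21 in tumors and 26 to 29 in large hyperplasias against control tissue, and 8 to 10 in small hyperplasias. In large against small hyperplasias they numbered 9 (without large hyperplasia 1) to 21 (without small hyperplasia 5), with 0 to 1 lower. In tumors against large hyperplasias 15 to 21 were lower. Same-numbered tissue samples correlated at -0.146 to 0.106, so the numbers do not pair them. With the number as a replicate block, 5 genes were called lower in tumors, set against control tissue, and 1 was higher in tumors than in large hyperplasias. In the sorted cells, taken as paired by number, the block left 0 calls. Signals under 30 limit *Cd4*, *Foxp3* and *Cd8a*. The large against small comparison and the omission of tumors 1 to 3 were chosen after seeing the data.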
